A study of Mus musculus with 10 samples.

Results

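Transcripts of the insulin-like growth factor (IGF) family were followed in CD31+ cells of the mouse heart under a control and a ketogenic diet. The family comprised 10 genes, namely the ligands Igf1 and Igf2, the receptors Igf1r and Igf2r, and the binding proteins Igfbp2, Igfbp3, Igfbp4, Igfbp5, Igfbp6 and Igfbp7. These 10 of the 46983 genes in the deposited count table were picked by name, with the diet contrast of these mice already known. Because the family was chosen from that contrast, the fold changes of its members are given as a description, without tests of their own. Of the 10 genes, 9 had enough reads to be among the 15949 genes fitted, and Igfbp2 did not.

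Cells carrying CD31, a surface protein of endothelial cells, were isolated with beads from hearts of male wild-type C57BL/6J mice that were 8 weeks old when the diets began. There were 5 mice that received the control diet D12359 (11.6% of energy as fat) and 5 that received the ketogenic diet D17011501 (89.5% of energy as fat), both for 14 days, and each mouse gave 1 library. No other agent or allele separated the groups. The libraries held 10885154 to 12710861 counted reads. Levels are given as normalized counts, that is, reads after scaling by the TMM method, and as RPKM, the deposited values that adjust for gene length and library size. A gene was called when its adjusted p-value in edgeR's quasi-likelihood test over all genes was under 0.05.

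IGF1 and IGF2 are secreted growth factors that signal mainly through IGF1R, a receptor tyrosine kinase, whereas IGF2R binds IGF2 and delivers it to lysosomes. The binding proteins IGFBP2 to IGFBP6 hold IGFs with high affinity in the circulation and the matrix, and so limit or prolong their access to IGF1R. IGFBP7 binds IGFs only weakly and is abundant in the vascular basement membrane. Endothelial cells make several of these binding proteins and respond to IGFs, which promote their survival and growth.

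The members lie on 7 chromosomes of GRCm38 (positions from GENCODE M21), and among them only Igfbp2 and Igfbp5 are direct neighbours. Igf1 lies at chr10:87858265-87937042 on the plus strand, Igf2 at chr7:142650766-142666816 on the minus strand, Igf1r at chr7:67952827-68233668 on the plus strand and Igf2r at chr17:12682406-12769664 on the minus strand. Igfbp2 (chr1:72824503-72852474, plus strand) and Igfbp5 (chr1:72857932-72874884, minus strand) are 5457 bases apart. Igfbp3 (chr11:7206086-7213923, minus strand) lies 3539 bases from Igfbp1, and Igfbp4 is on the same chromosome at chr11:99041244-99054392 on the plus strand. Igfbp6 lies at chr15:102144362-102149511 on the plus strand and Igfbp7 at chr5:77349240-77408041 on the minus strand.

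The promoters of Igfbp3 and Igfbp4 are shown because these were the members whose levels did not overlap between the diets. Each window runs 5′ to 3′ on the strand of the gene from 250 bases before to 50 bases after the RefSeq start (GRCm38.p6), at chr11:7213874-7214173 on the minus strand for Igfbp3 and at chr11:99040994-99041293 on the plus strand for Igfbp4. Capitals mark the letters TATATA in Igfbp3 and TATAAA in Igfbp4.
Igfbp3: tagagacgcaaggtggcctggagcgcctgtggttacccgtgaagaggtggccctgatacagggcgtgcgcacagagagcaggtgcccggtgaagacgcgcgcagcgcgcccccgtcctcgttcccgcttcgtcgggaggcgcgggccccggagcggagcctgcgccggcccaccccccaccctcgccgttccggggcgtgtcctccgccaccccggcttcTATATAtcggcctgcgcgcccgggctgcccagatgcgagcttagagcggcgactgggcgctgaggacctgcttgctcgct
Igfbp4: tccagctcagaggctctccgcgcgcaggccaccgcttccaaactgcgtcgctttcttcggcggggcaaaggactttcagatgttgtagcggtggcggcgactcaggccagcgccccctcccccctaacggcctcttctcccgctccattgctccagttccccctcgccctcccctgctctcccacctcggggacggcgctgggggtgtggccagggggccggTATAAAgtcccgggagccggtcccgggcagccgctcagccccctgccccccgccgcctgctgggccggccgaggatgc
Both windows were rich in G and C, at 71.7% for Igfbp3 and 71.3% for Igfbp4, against a median of 52.7% over 32851 RefSeq promoter windows of the same length. They held 37 and 27 CpG pairs, respectively, against a median of 7. The letters TATAAA, the core of a TATA box, began 28 bases before the start of Igfbp4 and occur on either strand in 13.6% of all windows. The letters TATATA, which were searched for after the sequence had been seen, began 30 bases before the start of Igfbp3 and occur in 5.67% of all windows. Neither window held GGGCGG (a GC box, in 35.7% of all windows), CCAAT (37.4%), CACGTG (an E-box, 7.15%) or TGTTTAC (a FOXO core, 3.65%) on either strand. The table held 14 windows for the 10 members, of which 6 held GGGCGG, 3 held CCAAT, 2 held TATAAA and 2 held CACGTG.

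The ligand genes were both transcribed, and their ranges overlapped between the diets. Igf1, the main mediator of growth hormone action, had normalized counts of 666, 645, 614, 328 and 428 in control mice 1 to 5 and of 660.1, 497, 661, 986 and 624 in ketogenic mice 1 to 5. Control mice 4 and 5 and ketogenic mouse 2 were the lowest and ketogenic mouse 4 the highest, and the other mice of both diets lay between 614 and 666. The mean was 536 ± 149.6 (SD, n = 5) on the control diet and 686 ± 181 (SD, n = 5) on the ketogenic diet, a log2 fold change of 0.35 (SE 0.210) with a 95% interval from -0.10 to 0.81. The fold change rested in part on single mice, with 0.19 without ketogenic mouse 4 and 0.22 without control mouse 4, and it was 0.20 with a fibroblast marker score of each mouse as a covariate. Igf1 was the most variable member, with a within-diet SD of 0.404 on the log2 scale against a median of 0.174 over all fitted genes.

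Igf2, an imprinted growth factor gene of fetal growth, had normalized counts of 3922, 4043, 3935, 4173 and 3838 on the control diet and of 3939, 3819, 3935, 3569 and 3682 on the ketogenic diet. The mice of both diets were within a narrow range, and ketogenic mice 4 and 5 were the lowest. The log2 fold change was -0.07 (SE 0.0360), with a 95% interval from -0.15 to 0.01. Igf2 was the least variable member (within-diet SD 0.0548 on the log2 scale). In GENCODE M21, exons of Igf2 share 3596 bases on the same strand with those of Gm49394, a gene model that was not analysed here, and 98 bases on the other strand with Igf2os, so reads there cannot be assigned to one gene in these unstranded libraries. Igf2os had 3 to 11 reads per mouse.

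The receptor genes did not differ between the diets beyond the spread among mice. Igf1r, the signalling receptor, had normalized counts of 1019.5, 1135, 937, 716 and 901 on the control diet and of 1089, 738, 704, 1027 and 1162 on the ketogenic diet. Each diet thus held both low and high mice, with control mouse 4 and ketogenic mice 2 and 3 the lowest, and the diet means were 942 ± 155 and 944 ± 209 (SD, n = 5 each). The log2 fold change was 0.00 (SE 0.154) with a 95% interval from -0.33 to 0.34. A difference within that interval is not excluded by these mice.

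Igf2r, the clearance receptor for IGF2, had normalized counts of 1898, 1894, 1821, 1895 and 1915 on the control diet and of 1804, 1785, 2049.9, 1838 and 1684 on the ketogenic diet. The control mice lay close together, and the ketogenic mice reached both above and below them. The log2 fold change was -0.04 (SE 0.0481, 95% interval -0.15 to 0.06). Igf2r and its antisense neighbour Airn overlap in GENCODE M21 without shared exon bases.

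Igfbp3 was lower in every ketogenic mouse than in any control mouse. Its product is the main carrier of IGFs in serum. The normalized counts were 1082, 991, 1031, 1245 and 1039 in control mice 1 to 5 and 639, 748, 704, 669 and 723 in ketogenic mice 1 to 5. The lowest control mouse lay above the highest ketogenic mouse, and control mouse 4 was the highest of all. The means were 1078 ± 99.3 and 696 ± 42.9 (SD, n = 5 each), a log2 fold change of -0.63 (SE 0.0687, 95% interval -0.78 to -0.48), which is a level 35.4% lower. Without control mouse 4, the highest, the log2 fold change was -0.57.

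Igfbp4 was likewise lower in every ketogenic mouse than in any control mouse. Its product holds IGFs until it is cut by the protease PAPP-A. The normalized counts were 936, 916, 877, 931 and 817 on the control diet and 702, 668, 727, 599.6 and 644 on the ketogenic diet. Again the diets did not overlap, with control mouse 5 the lowest of its diet and ketogenic mouse 3 the highest of its own. The means were 895 ± 49.7 and 668 ± 49.5 (SD, n = 5 each), a log2 fold change of -0.42 (SE 0.0629, 95% interval -0.56 to -0.29), or a level 25.4% lower.

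**Figure D1:**
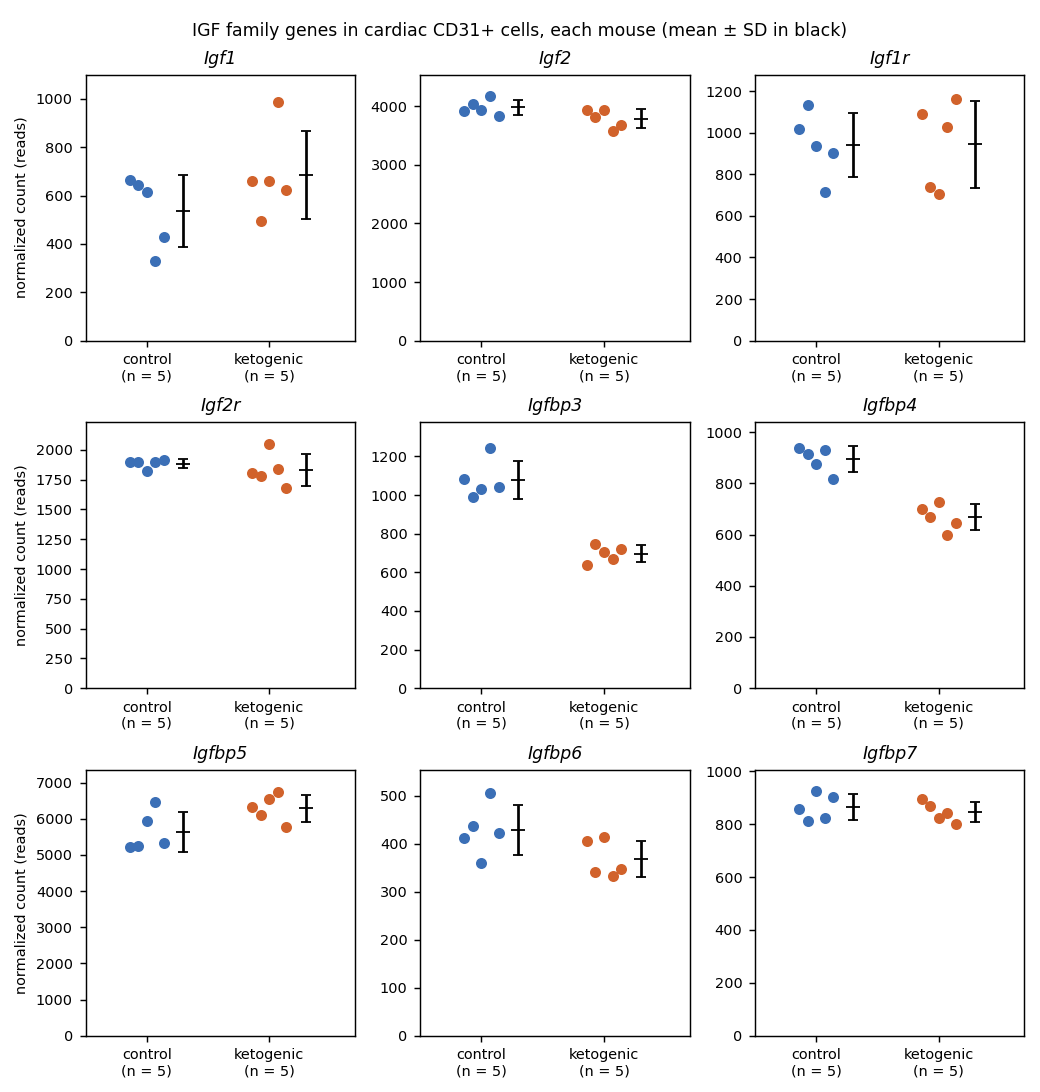
Normalized counts (reads, TMM-scaled, axes from 0) of the 9 fitted IGF family genes in each of 5 control (blue) and 5 ketogenic (orange) mice, shown in the order of replicate number, with the mean and SD of each diet in black. Igfbp3 and Igfbp4 are the panels in which all ketogenic mice lie below all control mice, whereas the ranges overlap in the other 7.

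The remaining binding protein genes overlapped between the diets. Igfbp5, whose product binds to extracellular matrix, had the most reads of the family, with normalized counts of 5208, 5240.0, 5953, 6459.7 and 5339.7 on the control diet and of 6327, 6105, 6539.5, 6734 and 5762 on the ketogenic diet. Control mice 1, 2 and 5 lay below all ketogenic mice, and control mice 3 and 4 lay among them. The log2 fold change was 0.16 (SE 0.0630, 95% interval 0.02 to 0.30), and the gene was not called. The value was 0.06 with a cardiomyocyte marker score of each mouse as a covariate. With counts corrected for the ceiling on read start positions described below, it was 0.20, or 0.25 with merged exons as the length. None of these alternatives called the gene.

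Igfbp6, whose product prefers IGF2 over IGF1, had normalized counts of 413, 438, 360.2, 504 and 422 on the control diet and of 405, 341, 413, 333 and 348 on the ketogenic diet. Ketogenic mice 2, 4 and 5 lay below all control mice, and the log2 fold change was -0.22 (SE 0.0985, 95% interval -0.43 to -0.00) without a call. Igfbp7, the weak IGF binder of the vascular matrix, had 858, 813, 925, 822 and 902 on the control diet and 895, 869.8, 825, 843 and 799 on the ketogenic diet. Its mice were interleaved, and the log2 fold change was -0.03 (SE 0.0533, 95% interval -0.15 to 0.09). Exons of Igfbp7 share 85 bases on the other strand with Polr2b, which the unstranded reads cannot separate.

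Igfbp2, a major binding protein of fetal and liver origin, was close to absent from these libraries. It had 0, 2, 0, 1 and 0 reads in control mice and 0, 0, 2, 0 and 0 reads in ketogenic mice, so no fold change is given. Its neighbour Igfbp5 had the most reads of the family in the same mice. Igfbp1, the binding protein made by the liver and the neighbour of Igfbp3, had 0 to 7 reads per mouse and was likewise not fitted.

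Counted over the family, 2 of the 9 fitted members (Igfbp3 and Igfbp4) were called, both lower, beside 1.34% of all 15949 fitted genes (213 genes, 129 higher and 84 lower). The same 2 of 9 had diets that did not overlap, beside 4.34% of all fitted genes (692 genes). Since the members were selected with this contrast in view, nothing is read from these shares. The fold change was negative for 6 members and positive for 3, with a median log2 value of -0.04, beside a median of -0.01 over all fitted genes. The intervals of Igf2, Igf2r and Igfbp7 reached no further than -0.15 on the log2 scale, whereas those of Igf1 and Igf1r were several times wider.

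**Figure D2:**
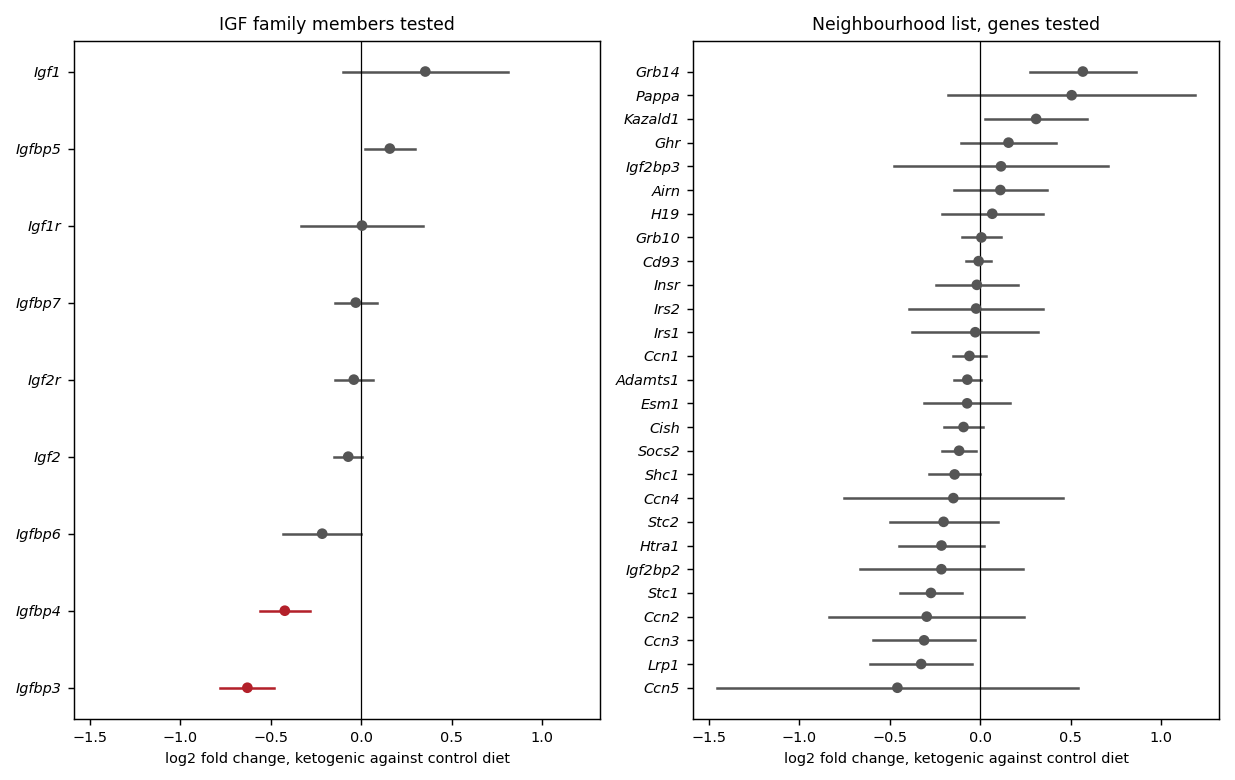
Log2 fold change of the ketogenic against the control diet with 95% intervals (lines) for the 9 fitted IGF family genes (left) and the 27 fitted genes around the IGF pathway (right), 5 mice per diet. Red marks genes with an adjusted p-value under 0.05, which are Igfbp3 at -0.63 and Igfbp4 at -0.42, and grey marks the rest.

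The alternatives of the analysis left Igfbp3 between -0.70 and -0.57 and Igfbp4 between -0.45 and -0.38 on the log2 scale. Igfbp3 was called in 19 of 19 alternatives. Igfbp4 was called in 18 of 19, and lost its call with a log2 fold change of -0.40 when a cardiomyocyte marker score of each mouse, the mean z-score of 10 marker genes, was added as a covariate. The score ran from -1.29 to 0.229 in control mice and from -0.570 to 1.38 in ketogenic mice, with overlapping ranges. The summed levels of the same markers are given with the marker lists.

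**Figure D3:**
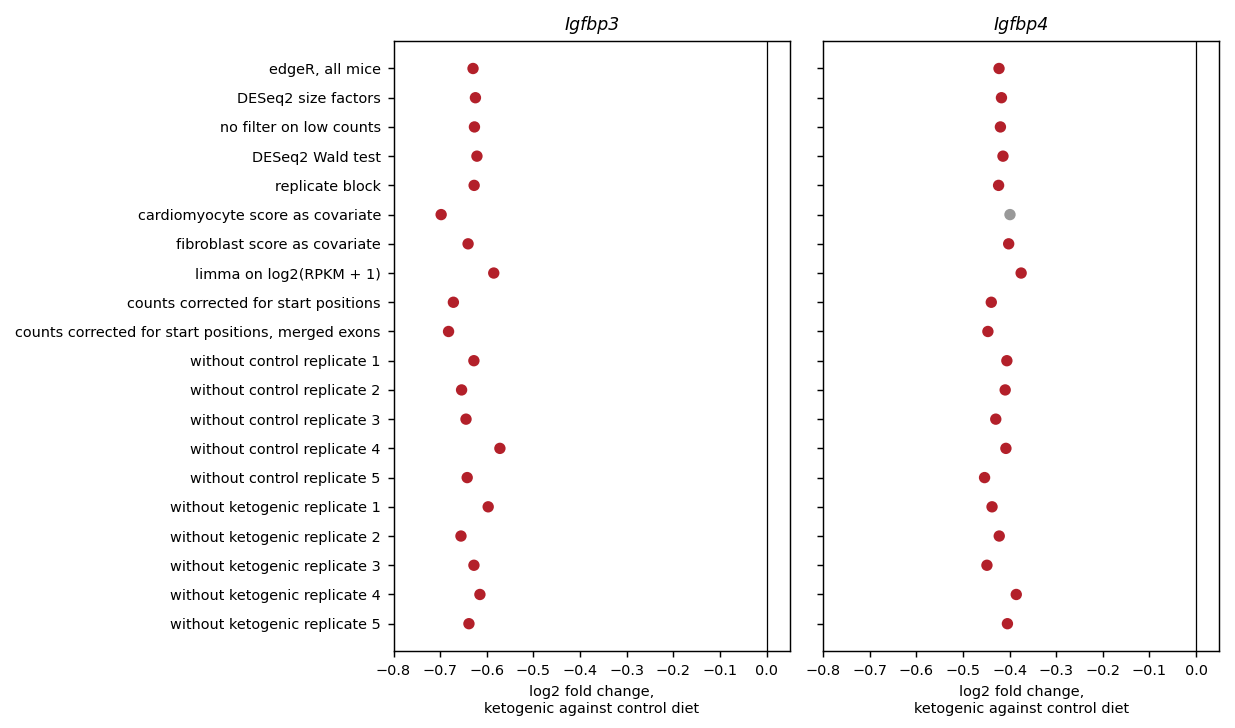
Log2 fold change (ketogenic against control diet) of Igfbp3 and Igfbp4 in the edgeR fit of all 10 mice (top row) and in 19 alternatives, with red for an adjusted p-value under 0.05 and grey for the rest. All points lie left of 0, and the single grey point is Igfbp4 with the cardiomyocyte score as a covariate, at -0.40.

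Per length, Igfbp5 and Igfbp7 stood at the top of the family. The median RPKM over the 10 mice was 50.3 for Igfbp5, 37.1 for Igfbp7, 31.4 for Igfbp6, 25.2 for Igf2, 19.8 for Igfbp3, 18.6 for Igf1r, 16.2 for Igf2r, 10.4 for Igfbp4, 4.16 for Igf1 and 0 for Igfbp2. Igf2 was therefore the more abundant ligand transcript. By these values the receptors lay between the ligands, but for Igf1r this depends on the gene length used, as described below. Among control mice, the ranges overlapped between Igfbp7 and Igfbp6, between Igf2 and Igfbp3, and between Igf1r and Igf2r, and no other neighbours in the order overlapped. Among ketogenic mice, Igf1r (median RPKM 19.7) stood above Igfbp3 (16.0), and the overlapping neighbours were Igf1r with Igfbp3 and Igfbp3 with Igf2r. The median RPKM of Igfbp3 was 23.5 on the control diet and that of Igfbp4 was 12.3, against 9.00 for Igfbp4 on the ketogenic diet.

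**Figure D4:**
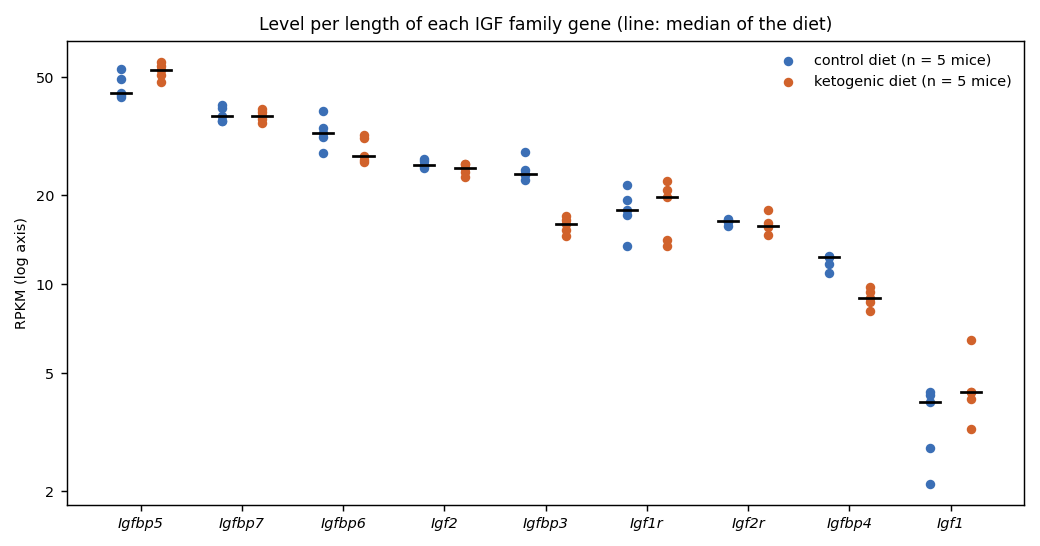
RPKM (log axis) of 9 IGF family genes in each control (blue) and ketogenic (orange) mouse, ordered by the median over all 10 mice, with the median of each diet as a black line. Igfbp5 is at the top with a median of 50.3, Igf1 at the bottom with 4.16, and Igfbp2, with a median of 0, is left out.

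The order depends in part on the gene length behind the RPKM values. For 11358 of 25077 genes with an unchanged identifier version, that length was longer than the merged exons of GENCODE M21. With the merged exons as the length, the medians were 86.2 for Igfbp5, 60.2 for Igfbp7, 58.6 for Igf2, 31.4 for Igfbp6, 23.9 for Igfbp3, 15.0 for Igfbp4 and 5.52 for Igf1, so that Igf2 and Igfbp6 changed places. Igf1r and Igf2r carry another identifier version in GENCODE M21 and have no such value. The length used for Igf1r was 4489 bases against 16791 bases of merged exons there, so the place of Igf1r in the order is uncertain.

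The make-up of the binding protein transcripts differed between the diets in the same mice. Of the RPKM summed over Igfbp2 to Igfbp7, Igfbp3 held 15.2% to 16.7% in control mice (median 15.6%) and 9.86% to 12.1% in ketogenic mice (median 10.8%). Igfbp4 held 7.26% to 8.39% in control and 5.67% to 6.58% in ketogenic mice. Igfbp5 held 29.0% to 32.4% in control and 35.6% to 39.6% in ketogenic mice. The shares of these genes did not overlap between the diets, but they add up to a fixed total, so a lower share of one raises the others. The sum itself was 148 to 167 RPKM in control mice (median 151) and 136 to 149 in ketogenic mice (median 143), with overlapping ranges. With merged exons as the length, Igfbp5 held 34.6% to 38.2% and 41.5% to 45.4%, respectively, and Igfbp3 held 12.6% to 14.1% and 8.10% to 9.99%.

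Counts in these libraries approached a ceiling near 2 reads per base of gene, which matters most for genes with many reads, such as Igfbp5. Of the 10881 genes whose mean count reached 100, none went more than 10% above the number of possible read start positions on both strands, and B2m, at 104%, stood at that number. By the mean count over the 10 mice, Igfbp5 used the most positions of the members, at 29.0%, or 49.7% when merged exons were taken as the length. In single mice, its share reached 0.337, or 0.577 with merged exons, in ketogenic mouse 4. By the mean count, Igfbp3 used 11.6% and Igfbp4 6.09%.

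Among genes around the IGF pathway, no gene passed the threshold in edgeR's fit. The list held 36 genes, of which 27 were fitted, 0 were called by edgeR and 0 by limma, 6 had an unadjusted p-value under 0.05 (2 higher, 4 lower) and 2 were called by DESeq2. Over all genes, 17.8% of the 15949 fitted had an unadjusted p-value under 0.05 in edgeR, and DESeq2 called 5.16% of the 15416 to which it gave an adjusted p-value. The fold change was positive for 8 and negative for 19, with a median log2 value of -0.07, beside -0.01 over all fitted genes. The genes that DESeq2 called, named here after their values were seen, were Grb14 and Stc1. Grb14, an adaptor that inhibits insulin receptor signalling, had normalized counts of 56.8 to 87.7 on the control diet (median 73.4) and of 100.2 to 115 on the ketogenic diet (median 112). Its log2 fold change was 0.57 (SE 0.134, edgeR adjusted p = 0.0614, DESeq2 adjusted p = 0.0129), and the ranges did not overlap.

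Among 6 fitted genes for the release and carriage of IGFs, 5 had negative fold changes. Adamts1, a secreted protease, had a log2 fold change of -0.07 (SE 0.0347) at a mean of 113.7 RPKM. The ceiling on counts may limit such values, since Adamts1 used 66.2% of its read start positions and Stc1 40.3%. Stc1, whose product stanniocalcin-1 inhibits PAPP-A, had normalized counts of 2968 to 3493 on the control diet and of 2259 to 3194 on the ketogenic diet, with a log2 fold change of -0.27 (SE 0.0791, edgeR adjusted p = 0.109, DESeq2 adjusted p = 0.0333). Htra1, a protease that cuts IGFBP5, had a log2 fold change of -0.21 (SE 0.108, adjusted p = 0.326). Pappa, the gene of PAPP-A itself and named after its values were seen, had only 11 to 36 reads per mouse, and Igfals, the gene of the acid-labile subunit that joins IGFBP3 in serum, had 0 to 7.

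Among 9 fitted genes of related receptors and adaptors, the fold change was positive for 3 and negative for 6. Grb10, an imprinted inhibitor of IGF1R and insulin receptor signalling, was the most abundant at a mean of 30.7 RPKM, with a log2 fold change of 0.01 (SE 0.0490). Cish and Socs2, feedback inhibitors of growth hormone and cytokine signalling, had log2 fold changes of -0.09 (SE 0.0483) and -0.12 (SE 0.0435, edgeR adjusted p = 0.190). Socs2 had normalized counts of 1632 to 1836 on the control and 1489 to 1624 on the ketogenic diet. Its ranges thus did not overlap, like those of Grb14, beside 4.34% of all fitted genes. Of the 4 fitted RNA-binding and imprinted genes, H19, the noncoding neighbour of Igf2, had a log2 fold change of 0.07 (SE 0.128), Airn 0.11 (SE 0.118) and Igf2bp2 -0.21 (SE 0.206). H19 varied more among mice than Igf2, with normalized counts of 1196 to 1828 on the control diet and of 1349 to 1837 on the ketogenic diet.

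Of 8 fitted genes with an IGFBP-related domain or a link to IGFBP7, 1 had a positive and 7 a negative fold change. Ccn1, a matrix signalling protein, had a mean of 167 RPKM and a log2 fold change of -0.06 (SE 0.0424), but it used 97.2% of its read start positions, close to the ceiling. Cd93, a receptor of endothelial cells that binds IGFBP7, had a log2 fold change of -0.01 (SE 0.0317), but used 66.4% of its positions. Esm1, a secreted endothelial proteoglycan, had a log2 fold change of -0.07 (SE 0.109).

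Within diets, the members did not vary as one group. Of the 36 pairs of fitted members, 18 had a positive Pearson r of their log2 CPM deviations from the diet means over the 10 mice, with a median of 0.00 and a range from -0.71 to 0.88. The highest values joined Igf2 with Igfbp4 (0.88) and with Igfbp6 (0.77), and Igf1 with Igf1r (0.63). The lowest joined Igfbp3 with Igf1 (-0.71) and with Igf1r (-0.66). Igfbp3 and Igfbp4, which shared the direction between diets, had an r of 0.19 within them. These values come from the same 10 libraries, share their scaling, and are a description.

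**Figure D5:**
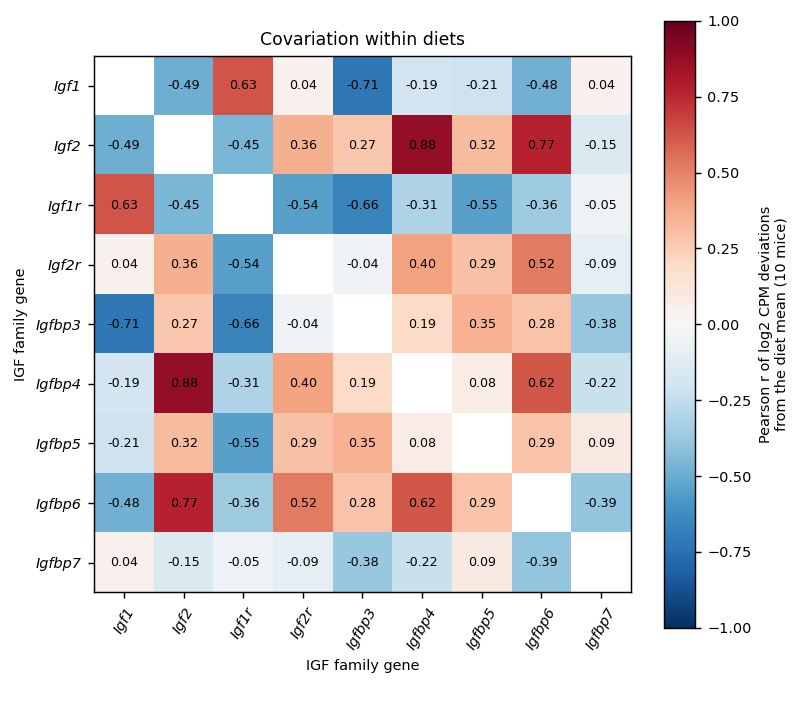
Pearson r between the log2 CPM deviations of each pair of IGF family genes from the mean of their diet, over 10 mice. The color scale runs from -1 (blue) to 1 (red), and Igf2 with Igfbp4 at 0.88 and Igf1 with Igfbp3 at -0.71 are the extremes.

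Of 10880 other genes whose mean count reached 100, those most like Igfbp3 in their deviations within diets included Cyp27a1 (r = 0.90) and Kyat3 (0.90), and 36 genes reached 0.8. The genes most like Igfbp4 were Vti1b (r = 0.93), Tsga10 (0.92) and Plekhj1 (0.91), and 97 genes reached 0.8. The named genes have the highest of 10880 values from only 10 mice, in libraries that share their scaling. How many genes would reach 0.8 without any link was not tested, so these values are a description.

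The cells carried the transcripts of endothelial cells, and markers of other cell types were detected too. All 10 endothelial markers were detected, with summed levels of 4545 to 4874 CPM on the control diet and of 4379 to 4956 on the ketogenic diet, led by Kdr. Markers of lymphatic endothelial cells summed to 690 to 926 and 653 to 928 CPM. Among other cell types, mural markers summed to 2662 to 2890 and 2599 to 2876 CPM. Fibroblast markers summed to 763 to 864 and 755 to 915, and erythroid markers to 266 to 321 and 295 to 311. The ceiling on counts described above depends on gene length and may limit abundant markers. The sums of different lists therefore do not show how much of each cell type was present. No marker of any list was at 0 in every mouse. In such bulk samples, fewer cells of a type and less RNA per cell cannot be told apart, and the cell type that supplied a member's reads was not measured.

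Of the marker lists, only the lymphocyte sums did not overlap between the diets. Cardiomyocyte markers summed to 566 to 712 CPM in control mice and 661 to 949 in ketogenic mice, 9 of the 10 genes had a positive fold change, and Actc1, Myl2, Myl3, Pln and Ttn were called by DESeq2 but not in the edgeR fit of all mice. Ttn was called in 4 of 19 alternatives, DESeq2 and edgeR without a filter on low counts among them. Lymphocyte markers summed to 242 to 328 CPM in control and 194 to 230 in ketogenic mice, without overlap, while 4 of the 9 fitted genes had a positive and 5 a negative fold change. Among them Cd79a, a B cell gene, was called by edgeR (log2 fold change -0.46, adjusted p = 0.0221) and in 11 of 19 alternatives. Its edgeR adjusted p was 0.0530 without control mouse 1, 0.0551 without control mouse 3, and 0.0565, 0.0530 and 0.0531 without ketogenic mice 3, 4 and 5, respectively. Macrophage markers summed to 206 to 736 CPM in control mice and to 185 to 335 in ketogenic mice, with control mouse 1 the highest, and 7 of 9 fitted genes had a negative fold change. These ranges overlapped, and edgeR called 0 of the macrophage genes. The signs were also uneven in other lists with overlapping sums. Endothelial and mural markers each had 3 positive and 7 negative fold changes, and fibroblast markers had 8 positive and 2 negative. The part of these lists in the levels of Igfbp3, Igfbp4 or Igf1 was not tested beyond the covariates. With the cardiomyocyte score as a covariate, Igfbp3 was at -0.70 on the log2 scale, and with the fibroblast score, Igfbp3 was at -0.64 and Igfbp4 at -0.40, both called. Igf1 was at 0.41 with the cardiomyocyte and at 0.20 with the fibroblast score, without a call.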

How the data were processed

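Messenger RNA from CD31+ cardiac cells was amplified with the SMART-Seq v4 kit, which keeps no strand, from 10 ng of RNA, and sequenced as 50-base single reads. The submitters' processing notes name bcl2fastq 2.17.1.14, STAR 2.3, HTSeq 0.6.0 and the mm10 build. The authors deposited raw counts per gene for 46983 Ensembl identifiers, and RPKM values that scale them to gene length and counted reads. Removal of duplicate reads is not given in the sources used here. Of the identifiers, 46488 were matched to a symbol in GENCODE M21 (GRCm38), 37902 of them with the same version. Totals were 10885154 to 12206734 reads on the control and 11108020 to 12710861 on the ketogenic diet, and their number limits the precision of low genes such as Igfbp2.

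Counts were fitted with edgeR 4.0.16 in R 4.3.3 (TMM, filterByExpr, quasi-likelihood test, Benjamini-Hochberg adjustment over 15949 genes) as 5 against 5 mice without covariates. Each standard error was obtained from the fold change and its F value. A prior count of 2 was used for log2 CPM. P-values set the difference between diets against the spread between mice. The paper refers to littermates on the control diet, but the labels do not name litters, so litter was not part of the fit. Alternatives were DESeq2 1.42.0 and its size factors, no filter on low counts, limma 3.58.1 on log2(RPKM + 1), the replicate number as a block, a cardiomyocyte or fibroblast marker score (mean z-score of log2 CPM) as covariate, counts corrected for read start positions, levels scaled by TMM, and each mouse left out. Correction with merged exon lengths and levels per merged exon were chosen after seeing the data. The scripts were tested on simulated data.

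The members and lists were chosen with earlier results of these data known. Genes named are the members, called genes of the pathway list and the 3 most abundant fitted genes of each of its subgroups, the 3 genes most like each called member, and markers. One result under this rule is not reported here.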

Additional observations from a re-analysis of the deposited data

Results flagged for a closer look

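One group of mice held a value that stood apart from the others. Among the control mice, Igf2r was lowest in mouse 3, at a normalized count of 1821, while the other 4 control mice lay between 1894 and 1915. The gap to the nearest mouse was 0.782 of the range of the group, above Dixon's 95% critical value of 0.71 for 5 mice. This was 1 of 18 groups of 5 mice examined, and chance alone flags about 1 in 20.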

How the results depend on the processing

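Over the whole table, the 213 called genes (129 higher, 84 lower) became 795 with DESeq2, 113 with the replicate block, 42 with the cardiomyocyte score (33 higher, 9 lower) and 74 with the fibroblast score (52 higher, 22 lower), of which 211, 90, 33 and 65 were among the 213. Leaving out 1 mouse gave 86 to 492 called genes, namely 109, 86, 98, 134 and 152 without control mice 1 to 5 and 134, 492, 108, 95 and 134 without ketogenic mice 1 to 5. The causes were not tested. The labels do not say whether the replicate numbers pair mice. Deviations of same-numbered mice correlated at -0.13 to 0.09, and no mouse correlated best with its own number. Such a check cannot show that the mice were unpaired, since a pairing may leave no trace in these deviations. Under the block, 2 members were still called. The members called were 1 with the cardiomyocyte score, where Igfbp4 was at -0.40 (edgeR adjusted p = 0.0957, the highest over its alternatives). The list around the pathway had 2 called genes with DESeq2. With the cardiomyocyte score, the log2 fold change of Igf1r was 0.30 in place of 0.00. Leaving out 1 mouse gave -0.66 to -0.57 for Igfbp3 and -0.45 to -0.39 for Igfbp4. Per merged exon length, the mean levels on the control and ketogenic diet were 4.63 and 5.96 for Igf1, 59.4 and 57.0 for Igf2, 29.4 and 19.2 for Igfbp3, 17.3 and 13.0 for Igfbp4, 80.2 and 90.2 for Igfbp5, and 61.0 and 60.3 for Igfbp7. Over all alternatives, Igf1 ranged from 0.19 to 0.45, Igfbp5 from 0.06 to 0.25 and Igfbp6 from -0.27 to -0.15, and Igf1r reached -0.08 without control mouse 4. Of 171 alternative log2 fold changes of members, 170 moved by less than the spread between mice, the exception being Igf1r with the cardiomyocyte score, and among these 170 Igfbp4 lost its call with the same score. That spread is larger than the standard error of a fold change, so a move within it can still be large beside the fold change. Igfbp5, also among the 170, was at 0.06 with the cardiomyocyte score in place of 0.16.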
